A study of Mus musculus with 4 samples.

Results

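The genes described are the 9 Notch receptors and canonical ligands of the mouse, taken by name from the table of gene levels in the FNP, the frontonasal prominence of the embryonic face, from which the nose and snout form. There were 4 receptors (Notch1, Notch2, Notch3, Notch4) and 5 ligands (Dll1, Dll3, Dll4, Jag1, Jag2), and each had 1 row among the 33708 rows of the table. FNPs came from 4 FVB/NJ embryos at E10.5 and the 29-somite stage. Of these, 2 were Smchd1+/+ (WT, labelled 1 female and 1 male) and 2 were Smchd1MommeD43/MommeD43 (homozygous, here MD43, both labelled male). MommeD43 is a missense allele of Smchd1, a chromatin protein with roles in gene silencing, that was induced by the mutagen ENU. It is a change in every cell of the embryo and not in the FNP alone. WT replicate 2 and MD43 replicate 2 had the same mother. Another record of the study calls WT replicate 2 female, in which case sex and genotype cannot be told apart in these embryos. The comparison asks which transcripts of the developing nose differ when SMCHD1 carries the MD43 change.

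Notch signalling passes between touching cells. A ligand of the Delta-like or Jagged family on the surface of a cell binds a Notch receptor on its neighbour, the receptor is cut, and its intracellular part enters the nucleus, where it joins RBPJ and switches on genes such as those of the Hes and Hey families. In the embryonic head the pathway is known for keeping neural progenitors from becoming neurons, for the choice between artery and vein, and for patterning of the facial skeleton, in which Jag1 takes part.

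All values are log2 RPKM, that is, reads scaled for transcript length and for library size, with 1 value per genotype in which the authors merged both embryos. No value therefore has a replicate spread of its own, and no test between the genotypes was possible. From the values, a library held 22328791 reads in MD43 and 16055882 in WT (geometric means). Reads below are geometric means over the 2 libraries of a genotype, and the errors (counting SE) are the smallest that read counting allows. Smchd1 itself had 3.30 log2 RPKM in MD43 and 3.31 in WT, a difference of -0.01 ± 0.02 (counting SE).

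The 9 genes covered a wide range of levels, and their order was the same in both genotypes. Notch3 was the highest, at 17.4 RPKM in WT and 19.5 in MD43. It was followed by Dll1, Notch1, Notch2, Jag1, Jag2, Dll3, Dll4 and Notch4, with Notch4 at 0.616 RPKM in WT and 0.713 in MD43. Every step in this order was larger than 2 counting SEs in both genotypes. The smallest steps were those from Notch1 to Notch2, with 0.18 on the log2 RPKM scale in WT and 0.10 in MD43, and that from Notch2 to Jag1 in MD43, with 0.13. Between-embryo variation is not part of these errors. Notch3 alone made up 51.2% of the summed receptor RPKM in WT and 54.3% in MD43, and Dll1 made up 48.9% of the summed ligand RPKM in both.

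**Figure D1:**
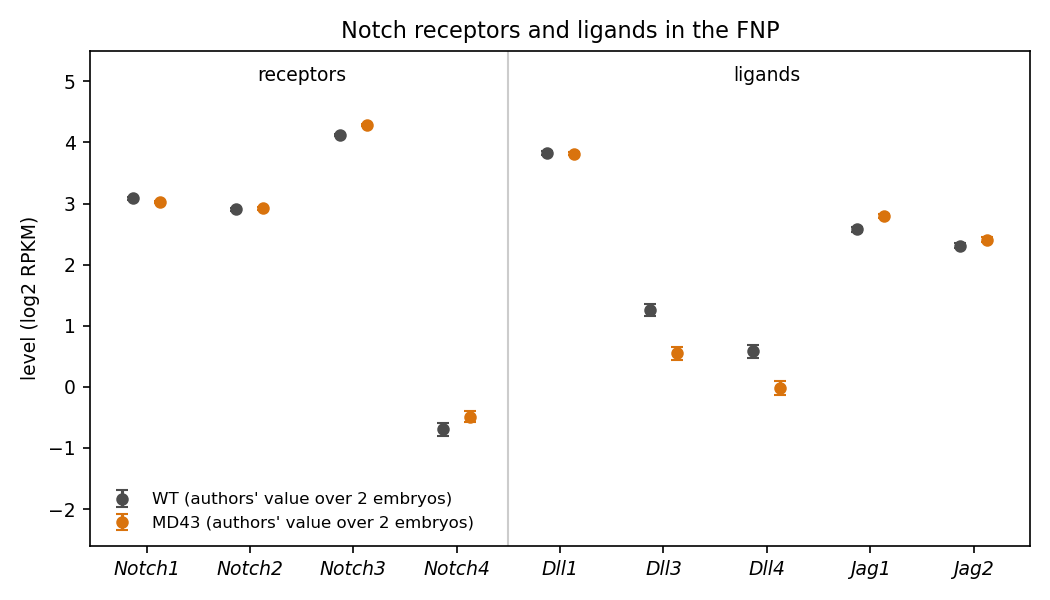
Level of each Notch receptor and ligand in log2 RPKM (vertical axis) in WT (grey) and MD43 (orange), each point the authors' value over 2 embryos and each bar ± 1 counting SE. Notch3 and Dll1 are highest in both genotypes, and Dll3 and Dll4 are the genes whose points lie farthest apart.

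The receptors differed little between the genotypes, and none of the 4 reached a 1.5-fold difference. Notch1, the receptor best known from blood vessels and neural progenitors, had 3.09 log2 RPKM in WT and 3.03 in MD43, from 1941 and 2590 reads. Its difference (MD43 minus WT) was -0.06 ± 0.03. Notch2 had 7.48 RPKM in WT and 7.58 in MD43, from 1295 and 1825 reads. Its log2 difference of 0.02 ± 0.04 was smaller than its counting error. Notch3, which is known from mural cells of vessels and is also made in other embryonic tissues, had 4.12 log2 RPKM in WT and 4.29 in MD43, from 2259 and 3525 reads. The difference of 0.17 ± 0.03 exceeded its counting error, at 1.12-fold. Notch4, an endothelial receptor, had -0.70 log2 RPKM in WT and -0.49 in MD43, from 79.75 and 128 reads, and a difference of 0.21 ± 0.15 whose 95% counting interval ran from -0.07 to 0.50. Summed over the 4 receptors, the level was 34.0 RPKM in WT and 36.0 in MD43.

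Among the ligands, Dll3 and Dll4, which had the lowest levels, were lower in MD43 by at least 1.5-fold, and the other 3 stayed under this limit. Dll3, a Delta-like protein found mainly inside the cell that does not activate receptors on neighbouring cells, had 1.25 log2 RPKM in WT and 0.55 in MD43, from 109 and 93.2 reads. Its difference was -0.70 ± 0.14, or 1.62-fold lower, with a 95% counting interval from -0.98 to -0.42. Dll4, the ligand of sprouting and arterial endothelium, had 0.58 log2 RPKM in WT and -0.02 in MD43, from 92.6 and 85.1 reads. Its difference was -0.60 ± 0.15, or 1.51-fold lower, with a 95% counting interval from -0.90 to -0.30. Dll4 thus lay close to the 1.5-fold line, and its interval includes smaller differences. In this bulk tissue, fewer cells that make a transcript and less transcript per cell cannot be told apart.

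The 3 abundant ligands had similar or slightly higher values in MD43. Dll1, the ligand of newborn neurons and of the presomitic mesoderm, had 3.82 log2 RPKM in WT and 3.81 in MD43, from 959 and 1325 reads, a difference of -0.01 ± 0.04. Jag1 had 2.58 log2 RPKM in WT and 2.80 in MD43, from 558 and 903.5 reads, a difference of 0.22 ± 0.05. Jag2, a ligand of epithelia in the developing face, had 2.31 log2 RPKM in WT and 2.41 in MD43, from 553.5 and 826 reads, a difference of 0.10 ± 0.06 with a 95% counting interval from -0.01 to 0.21. Summed over the 5 ligands, the level was 28.95 RPKM in WT and 28.78 in MD43. The share of Dll3 in it was 8.21% in WT and 5.09% in MD43, that of Dll4 was 5.17% and 3.44%, and that of Jag1 was 20.6% and 24.1%.

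Of the 9 genes, 2 were lower by 1.5-fold or more and 0 were higher by as much. Over the 15381 genes with at least 10 reads in 1 genotype, 6.44% were lower by 1.5-fold or more and 4.24% were higher by as much. At a 2-fold limit these shares were 2.48% and 1.64%, and no receptor or ligand passed it in either direction. Of the 2628 genes with a geometric mean of 50 to 200 reads over both genotypes, which is the range of Dll3, Dll4 and Notch4, 8.94% were lower by 1.5-fold or more and 3.23% were higher by as much. The median difference was 0.02 for the 9 genes, 0.09 for the receptors and -0.01 for the ligands, against 0.01 for all genes with at least 10 reads. The median size of the difference without its sign was 0.17 for the 9 genes and 0.16 for all genes. For the genes of 50 to 200 reads, the median difference was -0.07 and its median size was 0.23. Of these genes, 58.9% had a lower value in MD43.

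**Figure D2:**
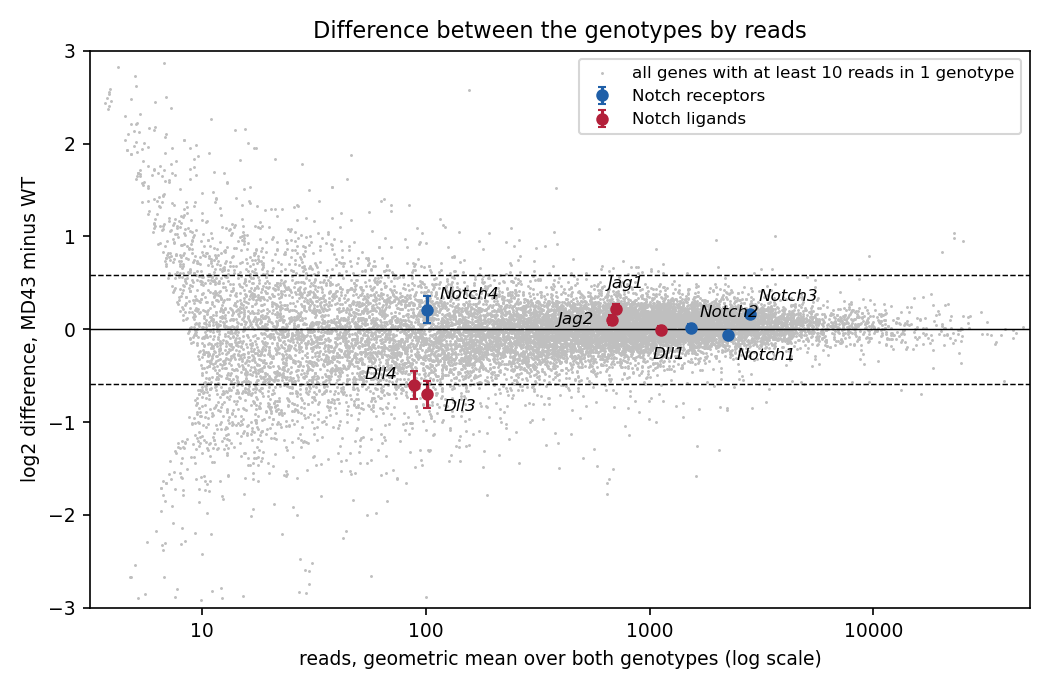
Log2 difference (MD43 minus WT, vertical axis) against reads (geometric mean over both genotypes, log scale) for all genes with at least 10 reads in 1 genotype (grey), the Notch receptors (blue) and the Notch ligands (red), with bars of ± 1 counting SE and dashed lines at 1.5-fold. Dll3 and Dll4 lie below the lower line, Dll4 only just, the other 7 genes lie between the lines, and 25 grey genes lie outside the axis.

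The merged value of a genotype fixes the product of the read counts of its 2 libraries, and for genes of few reads this product is a whole number with few possible factors. It was therefore possible to list the counts that the 2 embryos can have had, although not which embryo had which. Only pairs within 6-fold of each other are given, and they are not scaled for the depth of the libraries. For Dll3 the MD43 product was 8692, which leaves 82 and 106, 53 and 164, or 41 and 212 reads. The WT product of Dll3 was 11844, which leaves 94 and 126, 84 and 141, 63 and 188, or 47 and 252 reads. For Dll4 the MD43 product of 7236 leaves 67 and 108, 54 and 134, or 36 and 201 reads. The WT product of 8568 leaves 7 pairs for Dll4, from 84 and 102 reads to 42 and 204. For Notch4 the MD43 product of 16490 leaves 97 and 170 or 85 and 194 reads, and the WT product of 6360 leaves 60 and 106, 53 and 120, or 40 and 159 reads. At most a single pair of each set is the true one, since pairs beyond 6-fold are not listed, and the MD43 libraries were 1.39 times deeper. Whether the embryos of the genotypes overlap can therefore not be read from these counts.

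**Figure D3:**
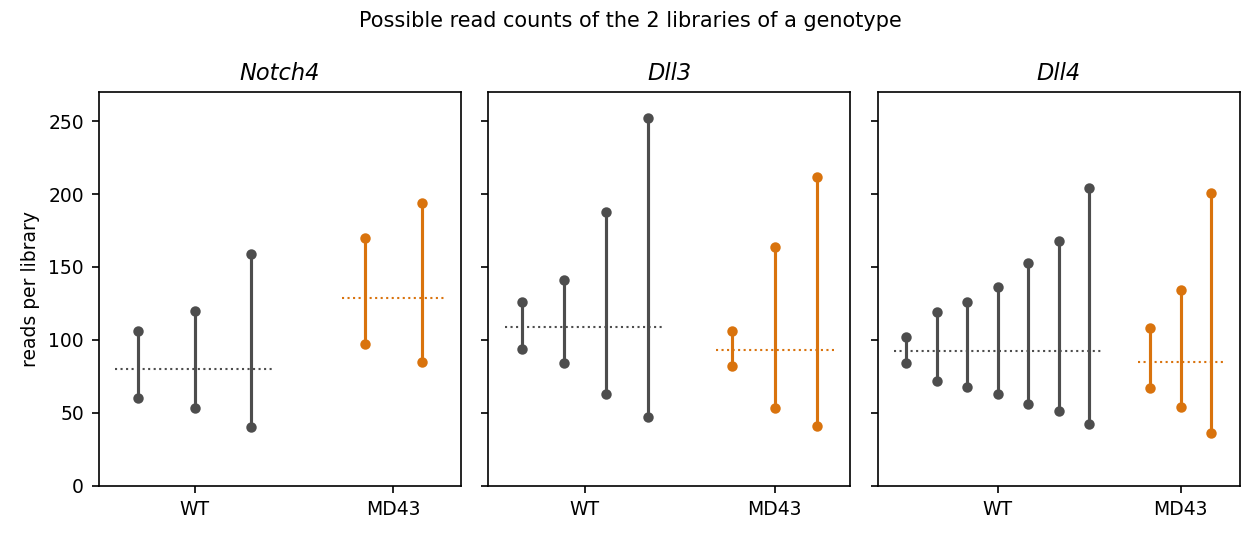
Possible reads per library (vertical axis) of Notch4, Dll3 and Dll4 in WT (grey) and MD43 (orange), where each joined pair of points is a pair of whole counts with the recovered product and the dotted line is their geometric mean. Within 6-fold, Notch4 in MD43 has 2 possible pairs and Dll4 in WT has 7, and the reads are not scaled for depth.

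Genes with a single possible pair within 6-fold show how far the 2 libraries of a genotype lay apart, if no true pair is wider. Between 70.7 and 141 reads this held for 280 genes in MD43 and 271 in WT, and the larger count was a median of 1.55 times the smaller in MD43 and 1.65 times in WT. A part of this ratio is the unequal depth of the libraries, shared by all genes. The remaining gene-to-gene spread of the log2 ratio (SD) was 0.36 in MD43 and 0.49 in WT, which gives a typical error of 0.30 for a log2 difference between the genotypes, counting included. The difference of Dll3 was 2.30 times this error, that of Dll4 was 1.962 times and that of Notch4 was 0.694 times. With pairs within 4-fold, the multiples were 2.45 for Dll3, 2.10 for Dll4 and 0.742 for Notch4. Between 316 and 548 reads, the highest level examined, the typical error was 0.22. The abundant Notch genes have more reads than this in both genotypes, where the error was not measured. Set against 0.22, the difference of Jag1 was 0.998 times the error (1.12 times with pairs within 4-fold), that of Notch3 was 0.760 times and that of Jag2 was 0.467 times. These errors are averages over other genes, so the spread of each Notch gene itself remains unknown.

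The promoters of the 9 genes were examined for the letters TGGGAA, which RBPJ binds, and for CANNTG, the E-box bound by proneural and other basic helix-loop-helix factors, on both strands. RefSeq windows (GRCm38.p6) from 250 bases before to 50 bases after the transcription start matched all 9 genes, with 10 windows because Dll1 has 2. The windows of Dll3, Notch1 and Jag2 and the downstream window of Dll1 lie wholly within the bounds of the GENCODE gene, so they are not upstream of its outermost start, and that of Dll3, which holds 2 CANNTG matches, lies in an exon. None of the 10 held TGGGAA, which 25.6% of all 32851 windows hold, and 5 of the 10 held CANNTG, against 72.3% of all windows. The windows of the Notch genes had a median GC content of 63.2%, against 52.7% for all windows. The 250 bases before the start of Dll4 (chr2:119325534-119325783, plus strand) and of Dll1 (chr17:15376933-15377182, minus strand) are shown because Dll4 was lower in MD43 and Dll1, the other Delta-like ligand that activates receptors, was not. Of the 2 RefSeq starts of Dll1 that farther upstream was used. Its window lies wholly upstream of the GENCODE start of Dll1 (15376872), while the Dll4 stretch ends right before the GENCODE start of Dll4 (119325784). The 2 stretches are therefore not placed alike. Capitals mark CANNTG.
Dll4: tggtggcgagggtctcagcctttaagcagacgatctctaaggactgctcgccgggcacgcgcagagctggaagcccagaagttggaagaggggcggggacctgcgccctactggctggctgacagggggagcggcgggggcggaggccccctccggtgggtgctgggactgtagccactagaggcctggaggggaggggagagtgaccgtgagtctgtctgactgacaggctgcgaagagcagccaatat
Dll1: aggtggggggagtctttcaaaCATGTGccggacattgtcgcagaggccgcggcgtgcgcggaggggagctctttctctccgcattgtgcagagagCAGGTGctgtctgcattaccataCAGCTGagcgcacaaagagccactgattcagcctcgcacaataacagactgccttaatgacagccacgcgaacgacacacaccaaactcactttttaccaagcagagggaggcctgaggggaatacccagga
The Dll1 stretch holds 3 E-box matches and the Dll4 stretch holds 0, and neither holds TGGGAA. A match is only a run of letters, and its absence from this window says nothing of more distant sites.

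In GENCODE M21 (GRCm38), Dll3 (ENSMUSG00000003436) lies on chromosome 7 from 28293553 to 28302238 on the minus strand and overlaps no other gene. Dll4 (ENSMUSG00000027314) lies on chromosome 2 from 119325784 to 119335962 on the plus strand. Its first 411 bases overlap Gm14207 on the other strand, which had 4.90 reads in WT and 6.63 in MD43. Notch3 (ENSMUSG00000038146, chromosome 17, 32120820 to 32166852) overlaps the antisense gene Gm17276, with 157 reads in WT and 229 in MD43. Dll1 (ENSMUSG00000014773, chromosome 17, 15367354 to 15376872) overlaps the lincRNA A930024N18Rik on the opposite strand, with 114 reads in WT and 175 in MD43. Notch1 (ENSMUSG00000026923, chromosome 2, 26457903 to 26516663) overlaps 2 transcripts of the opposite strand at its 3′ end, of which Gm13568 was 1.51-fold lower in MD43. The libraries were stranded, but the use of strand in counting is not given in the sources used here, so a read from such an overlap may have been given to either gene. Notch2 (ENSMUSG00000027878, chromosome 3, 98013527 to 98150361) holds within its bounds Gm42820 on the same strand, which was 1.70-fold higher in MD43 (32.5 reads in WT, 76.7 in MD43). Notch4 (ENSMUSG00000015468) lies on chromosome 17 from 34564268 to 34588503, Jag1 (ENSMUSG00000027276) on chromosome 2 from 137081456 to 137116644 and Jag2 (ENSMUSG00000002799) on chromosome 12 from 112907819 to 112929776. Notch4 overlaps the pseudogene Gm20462 on the opposite strand. Jag2 overlaps the microRNA gene Mir6941 and Notch1 the microRNA gene Mir6996, each on the same strand. No value was matched for Gm20462, Mir6941 or Mir6996. Dll1, Notch3 and Notch4 lie on chromosome 17, as does Smchd1.

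The other genes of the pathway were described from 7 lists of 46 genes, of which 45 had at least 10 reads in 1 genotype. Of these 45, 4 were lower by 1.5-fold or more, 0 were higher by as much, beside the 6.44% and 4.24% of all genes given above, and their median difference was -0.04, against 0.01 for all genes. A count this small is near the share over all genes. The 4 genes had few reads. Dner, a noncanonical Notch ligand of neurons, had 0.23 log2 RPKM in WT and -1.14 in MD43, from 90.1 and 48.5 reads. Its difference was -1.37 ± 0.18, or 2.58-fold lower, which was 4.50 times the typical error at 70.7 to 141 reads, a range above its MD43 reads. Of the other noncanonical ligands, Dlk2 did not reach 1.5-fold and Dlk1 had no more than 3 reads in either genotype, and the median of Dner and Dlk2 was -0.88. Neurl1b, a ubiquitin ligase of the kind that drives ligand endocytosis, had 19.9 reads in WT and 17.15 in MD43, a difference of -0.69 ± 0.34. The 4 ubiquitin ligases had a median of -0.12. Aph1b and Aph1c, near-identical subunits of gamma-secretase that can share reads, differed by -0.79 ± 0.23 and -0.61 ± 0.24 on 43.4 and 36.8 reads in WT. Aph1a, the abundant copy, differed by -0.02 ± 0.05. The 10 cleavage genes had a median of -0.02, which was 0.02 after correction for GC content and length.

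The other 4 lists held no gene past 1.5-fold. Over all genes with at least 10 reads, 48.83% had a lower value in MD43. Between 50 and 200 reads this share was 58.9%. The signs below therefore describe small lists only. The 5 glycosylation genes had a median of 0.04 and positive differences, of which those of Mfng, Poglut1 and Rfng were smaller than their counting SE. The largest were those of Pofut1 (0.24 ± 0.04), which adds fucose to the receptor, and Lfng (0.23 ± 0.05), a Fringe enzyme that extends it and shifts ligand preference. Of the 8 genes of receptor turnover, 7 had a lower value, with a median of -0.12, led by Numbl (-0.29 ± 0.06) and Dtx1 (-0.28 ± 0.20). The difference of Fbxw7, among the 7, was smaller than its counting SE. The nuclear complex, with 10 genes, had a median of 0.02 and ranged from the coactivator Maml2 (-0.42 ± 0.09) to the corepressor Spen (0.26 ± 0.04). The 6 target genes had a median of -0.15, with 5 lower and 1 higher, and their largest differences had opposite signs, with Hey1 at 0.38 ± 0.05 and Heyl at -0.31 ± 0.15.

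**Figure D4:**
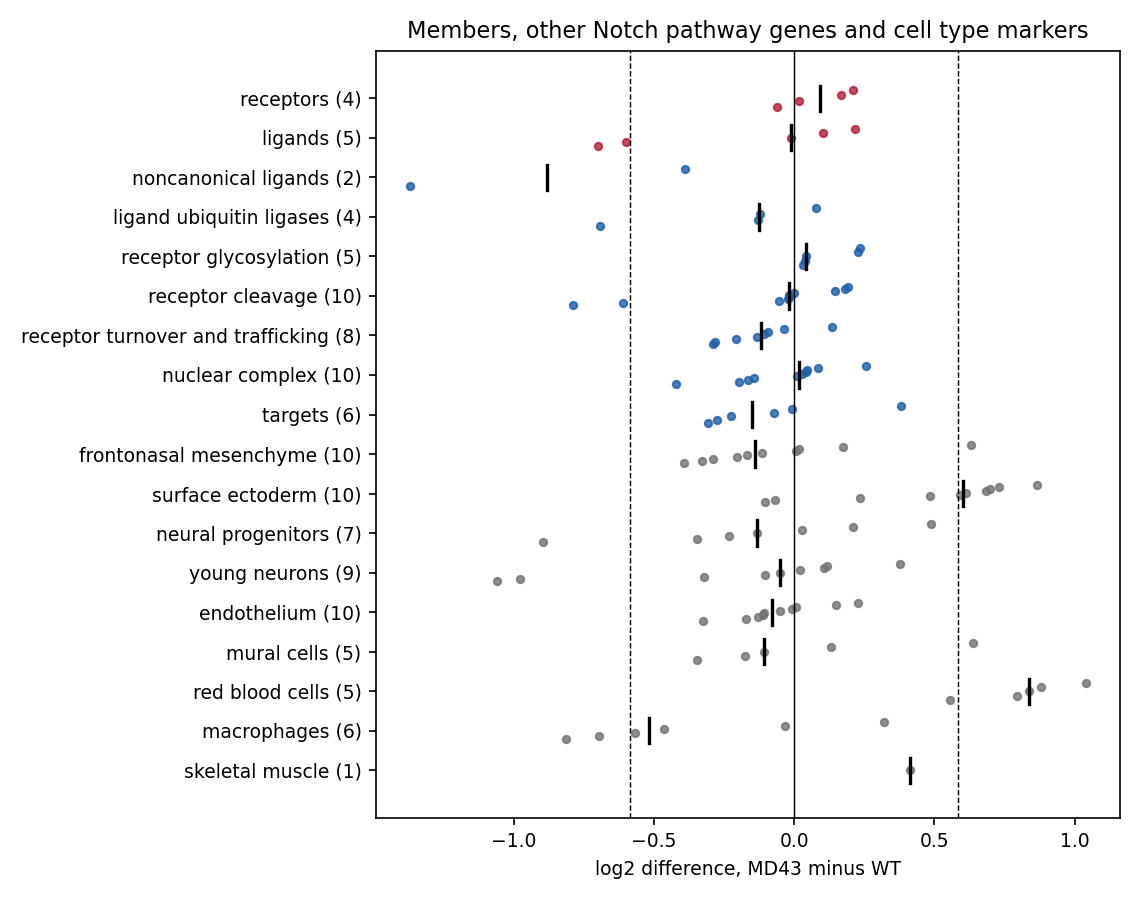
Log2 difference (MD43 minus WT, horizontal axis) of each gene with at least 10 reads in 1 genotype, by list, for the Notch receptors and ligands (red), the other pathway genes (blue) and cell type markers (grey), with list sizes in brackets, medians as black bars and dashed lines at 1.5-fold. Dll3, Dll4 and 4 other pathway genes lie beyond the lower line, and the surface ectoderm and red blood cell markers lie mostly to the right.

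Markers of cell types that the dissected piece can hold were set beside these genes. The 10 frontonasal mesenchyme markers had a summed level of 181.6 RPKM in WT and 177.6 in MD43. All 10 had more than 10 reads, but so did all 10 endothelial markers, so this limit does not identify the tissue. The mesenchyme markers had a median difference of -0.14, and Msx1, the most abundant in WT, differed by -0.17 ± 0.03. Beside Dll4 and Notch4, 0 of 10 endothelial markers passed 1.5-fold, with a summed level of 19.33 RPKM in WT and 18.35 in MD43 and a median of -0.08. Cldn5, the most abundant of them, differed by -0.11 ± 0.12, and Kdr, a VEGF receptor, by -0.33 ± 0.08. Beside Dll3 and Dll1, 2 of the 9 young neuron markers in the table were lower by 1.5-fold or more, namely the proneural factors Neurog2 (-1.06 ± 0.10) and Neurod4 (-0.98 ± 0.29). The summed level of these 9 was 119.9 RPKM in WT and 116.9 in MD43, their median was -0.05, and Tubb3, the most abundant, differed by 0.02 ± 0.03. Of the 7 neural progenitor markers, 1 (Fabp7, -0.89 ± 0.05) was lower by 1.5-fold or more, the median was -0.13, Sox2, the most abundant in WT, differed by -0.13 ± 0.03, and the sum was 301.6 RPKM in WT and 286.3 in MD43.

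Beside Jag2, 6 of 10 surface ectoderm markers were higher in MD43 by 1.5-fold or more, against 4.24% of all genes. The 10 markers had a median of 0.60 and a summed level of 135.5 RPKM in WT and 202.8 in MD43. Krt18, the most abundant of them, differed by 0.49 ± 0.04, and the tight junction gene Cldn6 by 0.87 ± 0.05. Beside Notch3, 1 of the 5 mural cell markers above the read minimum was higher by 1.5-fold or more (Des, 0.64 ± 0.20). Tbx2, the most abundant gene of the mural list, differed by 0.13 ± 0.06, and the median of the list was -0.11. The list summed to 16.61 RPKM in WT and 17.21 in MD43, of which Tbx2 made up 9.64 and 10.55. The more specific mural markers Rgs5, Kcnj8 and Abcc9 had fewer than 10 reads in both genotypes, so the sum is not a measure of mural cells. Of 5 red blood cell markers 4 were higher by 1.5-fold or more (median 0.84, Hbb-bh1 at 1.04 ± 0.01), and their sum was 3056 RPKM in WT and 5810 in MD43. Of 6 macrophage markers 2 were lower by 1.5-fold or more (median -0.52), with Cd68, the most abundant in WT, at -0.46 ± 0.20, Csf1r, the most abundant in MD43, at -0.03 ± 0.09 and Tyrobp at -0.81 ± 0.35. Of the skeletal muscle markers, Myod1, Myog and Myf6 had no more than 3 reads, and Actn2 differed by 0.41 ± 0.24. Myf5 had no reads in WT and 7.21 in MD43, under the read minimum, with a difference of 2.53 ± 1.14. The part of the endothelial, neuronal, ectodermal, mural and blood cell values in the Notch values was not tested.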

How the data were processed

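RNA of the FNP was sequenced by the study from 2 WT and 2 MD43 embryos, with stranded mRNA libraries from 100 ng of total RNA, per the labels. The authors trimmed reads with Trim Galore (0.4.4), mapped them to GRCm38.p6 with HISAT2 (2.0.5), and quantified them in SeqMonk. The deposited values are log2 RPKM, scaled to library size and to the length of each transcript, with both libraries of a genotype merged by the authors. Autosomes alone are listed. The table also holds the authors' fold change, mean and FDR, which were not used.

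Rows were joined to GENCODE M21 (33101 of 33708 matched). Genes without reads, which share a log2 difference of -0.4758, set the scale on which the value plus log2 exon length gives the product of both libraries' counts, with 0.9 for a library without reads. Of the products between 1000 and 100000, at least 99.7% were whole within 0.1. The recovery and the spread fit (a folded normal, scipy 1.17.1) were tried on simulated data. The simulated spread between libraries was a set value that was not matched to the fitted spread, and the outcome is not reported here. Genes needed 10 reads in 1 genotype. No test was run and no p-value is given, since each genotype has a single value. With 1 value a genotype, a 1.5-fold difference served as the limit.

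The 9 members, the pathway lists (noncanonical ligands, ubiquitin ligases, glycosylation, cleavage, turnover, nuclear complex, targets), the marker lists and the limits were chosen with earlier results of these data known, Dner among them. All members are named. Of each pathway list, the genes past 1.5-fold or else the 2 largest differences are named, and of each marker list its most abundant gene and that with the largest difference. For the frontonasal mesenchyme list the latter is not reported here. Dlk1, Dlk2, Aph1a, Mfng, Poglut1, Rfng, Fbxw7, Hes1, Hey2, Nrarp, Neurod4 and Cd68 were added after their values were seen. The same holds for markers with fewer than 10 reads and for overlapping and neighbouring genes. The library pairs, the window of 50 to 200 reads and the promoter motifs were chosen after the data were seen. Alternatives were pseudocounts of 0.1 and 1 RPKM, centring, a correction for GC content and length, other read minimums and a 2-fold limit. No protein sequence was used here.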

Additional observations from a re-analysis of the deposited data

How the results depend on the processing

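The differences of the 9 genes were recomputed under 4 alternatives each. All 36 values lay within the 95% counting interval of the original and kept its sign. The count of genes at least 1.5-fold lower did change. It was 2 as reported, 1 with a pseudocount of 0.1 RPKM, 0 with a pseudocount of 1 RPKM and 0 at a 2-fold limit, both for all 9 genes and for the ligands, since pseudocounts shrink the differences of low genes. Dll4 left first, at -0.55 with 0.1 RPKM and -0.33 with 1 RPKM, and Dll3 had -0.66 and -0.45. Other pathway genes at least 1.5-fold lower numbered 4 as reported, 2 and 0 with the pseudocounts, 1 with a minimum of 50 reads and 1 at a 2-fold limit. The typical error between libraries was 0.30 with pairs within 6-fold and 0.28 with pairs within 4-fold. No paired analysis was possible because each genotype has a single merged value, and for the same reason no fit without a replicate was run. Depth limits Dll3, Dll4 and Notch4, each with 79.75 to 128 reads a genotype.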

Other observations

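The genes next to each receptor and ligand were also listed. Within 100 kb of Dll3, 12 other genes had at least 10 reads in 1 genotype, and none reached 1.5-fold in either direction (median 0.05, from -0.26 to 0.44). Within 100 kb of Dll4 there were 4, of which 1 was lower and 1 higher by 1.5-fold or more. Over all genes these shares were 6.44% and 4.24%, and 4 genes are too few to compare with them. The lower gene was Chac1, 15.3 kb from Dll4, which encodes a glutathione-degrading enzyme of the stress response that has also been described as an inhibitor of Notch maturation. Chac1 had 66.0 reads in WT and 13.75 in MD43, a difference of -2.74 ± 0.30 (counting SE). The higher gene was Spint1, a protease inhibitor of epithelia, at 0.95 ± 0.12. Within 100 kb of Notch1, 1 of 12 such genes was lower by 1.5-fold or more, and within 100 kb of Notch2, 1 of 2 was higher. Near Notch3, Notch4, Dll1, Jag1 and Jag2 no such gene reached 1.5-fold. Chac1 and Spint1 were chosen after their values were seen.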
